A study of Mus musculus with 45 samples.

Results

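The 150 table rows described here had a high read count after 1 day of culture of mouse hepatic stellate cells (HSCs) and were near their starting level again after 12 days. They were selected on these values themselves, out of 23999 rows. Counts were divided by the total of their library and multiplied by 1000000 (CPM), and L was taken as log2 of the group mean CPM plus 1. Of 10124 rows with an L of at least 3 at 1 day, 3427 also had an L at 12 days within 0.5 of that at 2 hours. The 150 of these with the largest score were taken, where the score is the smaller of the differences of L at 1 day from L at 2 hours and from L at 12 days. Rows are called R1 to R150 in the order of the score, with R1 the highest. No gene names are given, because the identifiers printed beside the counts did not follow the counts.

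RNA was sequenced in 45 libraries of 13 groups of HSCs from male C57BL6/J mice, sorted by the autofluorescence of their retinoid stores. In vitro transdifferentiation (IVT) had 3 libraries each from cells kept for 2 hours in suspension and from cells on plastic in medium with serum for 1, 4, 8 or 12 days. In the diet model, 4 libraries each came from chow-fed mice and from mice given Western diet and fructose in the drinking water (WD) for 12, 16 or 24 weeks. In the CCl4 model, 4 libraries came from mice given the corn oil vehicle, and 3, 4 and 3 came from mice given CCl4 by gavage for 1, 4 and 8 weeks. The diet mice were compared at one age, so a longer feeding also began earlier in life, and the cultured cells came from healthy mice. The paper's culture methods give technical replicates for each time, whereas its sequencing methods speak of biological ones. Chi-square per degree of freedom between 2 libraries of a group is about 1 for counting error alone. It was 1.605 to 2.039 at 1 day, 1.144 to 1.285 at 4 days, 1.075 to 1.192 at 8 days and 1.31 to 1.702 at 12 days of culture. At 2 hours it was 4.784 to 16.59, and in the mouse groups 3.646 to 74.88. Whether the 3 IVT libraries of a time are separate animals or wells of one preparation was not tested. The p-values for IVT may therefore measure only the spread between wells.

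HSCs are the retinoid-storing pericytes of the liver sinusoid. On liver injury they turn into contractile, matrix-producing myofibroblasts, and plating on stiff plastic in serum drives a similar change. Isolation and plating are known to set off early response programmes in many primary cells, some of which fade as the cells adapt.

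Total counts ranged from 2318311 to 7576527 per library, and 3 counts corresponded to 0.396 to 1.29 CPM. These limits cover counting error only. The cell type could not be checked on markers, because the names do not follow the counts. Of 5 genes that every cell uses, 2 were at or under 3 counts in all 45 libraries. So were 1 of 7 HSC markers (Des), 2 of 5 markers of activated HSCs and 1 of 3 of Kupffer cells. Of the 4 markers each of endothelial cells and hepatocytes, 0 were. A given line was assumed to stand for one gene throughout the 3 tables. Rank correlations of L between groups of different experiments, across 23999 rows that are not independent replicates, were 0.858 to 0.968. Over the 150 rows alone they were 0.651 to 0.955. At 2 hours the median of the rows with an L of at least 3 at 1 day was 5.49, against 5.93 at 1 day, and the usual scaling of edgeR (TMM) differed by 0.33 on the log2 scale between these groups. The rises over 2 hours below are on CPM and include this shift. With TMM the median rise over 2 hours was 1.26 in place of 1.56 and the lowest was 0.84. All 150 rows still had every 1-day library above every 2-hour library. The return to the starting level also depends on the scaling. With TMM 127 of the 150 rows had an L at 12 days within 0.5 of that at 2 hours. The median difference of 12 days from 2 hours was then -0.26 in place of 0.04.

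The height of the day 1 level varied widely among the rows. The score was 1.16 to 4.24 with a median of 1.45, and 24 rows had a score of at least 2. The median difference in L at 1 day was 1.56 from 2 hours and 1.56 from 12 days. These values chose the rows and are given as a description. Together the 150 rows took 1.30% to 1.32% of the counts of a library at 1 day, against 0.346% to 0.466% at 2 hours and 0.425% to 0.433% at 12 days. The 1-day libraries lay close together, with a median SD of 0.069 in log2(CPM + 1) over the 3 libraries and a highest SD of 0.27. The 2-hour libraries lay further apart. Their medians over the 150 rows were 4.63 in library A, 4.15 in B and 4.53 in C, and 87 of the 150 rows were lowest in B.

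R1, R4 and R7, at ranks 1, 4 and 7, had almost no reads at the other culture times. R1 had 23.7, 21.7 and 21.3 CPM in the 3 libraries at 1 day. At 2 hours it had no read in 2 libraries and 0.562 CPM in the other, and it had none in the 3 libraries at 4 days. R4 had 8.83, 9.77 and 7.84 CPM at 1 day and at most 0.434 CPM in any other culture library. R7 had 8.52, 7.65 and 6.49 CPM at 1 day and at most 0.427 CPM in the other culture libraries. Each of these 3 rows was present in every 1-day library and at or near the counting floor before and after.

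Other leading rows had a measurable level throughout. R3 had 66.7, 74.1 and 69.7 CPM at 1 day, against 3.00, 3.35 and 7.87 at 2 hours and 5.04, 4.92 and 5.72 at 4 days. R9 was the most abundant of the 10 leading rows at 196, 202 and 192 CPM at 1 day, with 24.6, 28.5 and 25.9 CPM at 2 hours. R5 had 26.5, 31.3 and 32.3 CPM at 1 day and 2.80, 3.35 and 2.53 at 2 hours, and R10 had 24.4, 25.6 and 24.0 CPM against 2.80, 1.49 and 2.53. In each of these 4 rows the libraries of day 1 stood clear of those of every other culture time. R2, R6 and R8 completed the first 10, at 26.9 to 31.1, 16.0 to 19.6 and 14.6 to 17.5 CPM at 1 day and at most 1.00, 2.79 and 3.09 CPM at 2 hours.

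At the other end the selection had no natural edge. R148, R149 and R150, the last rows taken, had scores of 1.164, 1.163 and 1.162. R151, R152 and R153, the first rows left out, had 1.157, 1.155 and 1.155. R150 had 57.1, 58.5 and 55.2 CPM at 1 day and 26.4, 15.6 and 25.6 CPM at 2 hours.

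By day 4 most rows had lost the larger part of the rise, and the level came down further to day 8. The share of the rise that remained was computed on L, with the mean of L at 2 hours and L at 12 days as the base. The median share was 37.1% ± 2.84 at 4 days and 17.3% ± 1.49 at 8 days (SD over the medians of the 3 libraries of a time, n = 3). The middle 50% of the rows lay between 23.5% and 49.0% at 4 days and between 5.56% and 28.5% at 8 days. From 1 day to 4 days the median of L over the rows went from 6.07 to 5.12, and then to 4.89 at 8 days and 4.59 at 12 days. In 108 of the 150 rows L was lower at each step. With TMM-scaled CPM the median shares were 29.9% and 10.5%, because the base at 2 hours is then higher.

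**Figure D1:**
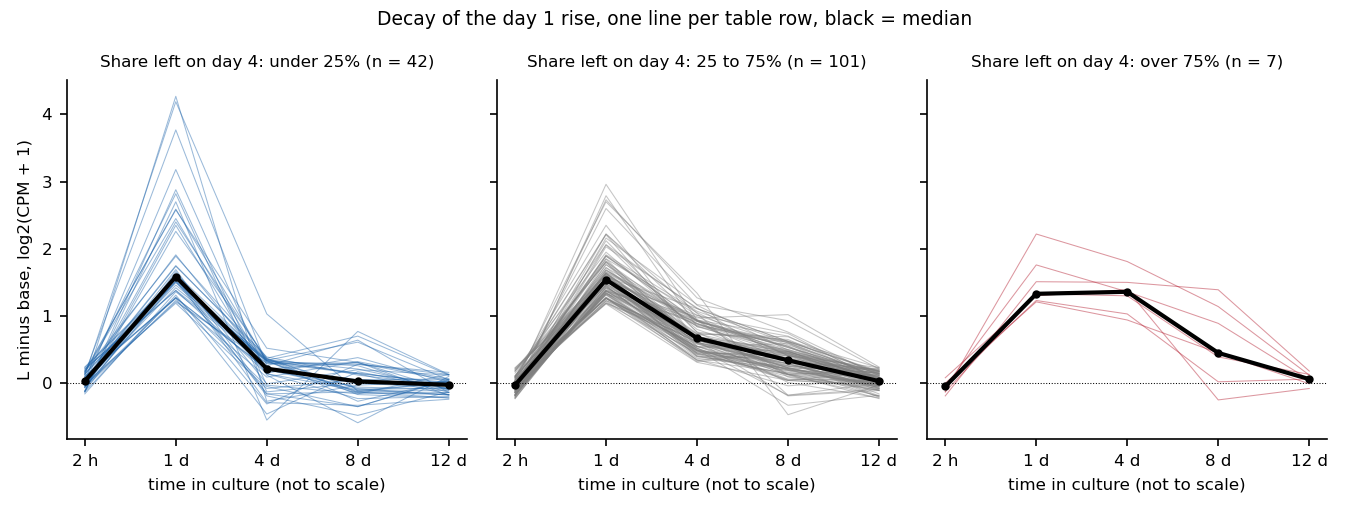
L minus its base in log2(CPM + 1) against culture time (the spacing is not to scale), with a line per row and the median in black, in 3 panels by the share of the rise remaining at 4 days. The 42 rows under 25% are near 0 by 4 days, the 101 rows of 25 to 75% come down in steps, and the 7 rows over 75% still stand near their day 1 level at 4 days.

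The rows came down at different speeds. At 4 days 42 rows had less than 25% of the rise left, 101 had 25% to 75% and 7 had more than 75%. At 8 days the numbers were 100, 49 and 1. Of the 42 fast rows, 37 stayed under 25% at 8 days, and of the 101 intermediate rows 61 went under 25% by then. L was below the base in 13 rows at 4 days and in 27 rows at 8 days, but no row was more than 0.5 below the lower of its 2-hour and 12-day values.

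The 7 slow rows were R22, R39, R91, R119, R126, R132 and R143. R91 alone kept more than 75% to day 8. It had 47.8, 49.7 and 46.6 CPM at 1 day, 45.7, 48.2 and 49.6 at 4 days, 44.5, 44.2 and 44.4 at 8 days and 18.1, 20.5 and 16.97 at 12 days, against 13.01, 17.7 and 11.8 at 2 hours. The libraries of 1 and 4 days overlapped, and the lower level came only between 8 and 12 days, so the row held a plateau for most of the culture. R119 was the one row whose highest culture group was not day 1. It had 10.4, 12.5 and 12.5 CPM at 1 day, 14.8, 13.6 and 9.53 at 4 days and 4.17, 3.15 and 2.78 at 8 days, with overlap between 1 and 4 days and none between 4 and 8 days. In R132 as well a 4-day library reached the range of the 1-day libraries, whereas in the other 147 rows every 1-day library was above every 4-day library.

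The change from 4 to 8 days was tested, since the rule used neither of these times. The rule fixed a high start and a low end, so a fall somewhere between 1 and 12 days was built into the choice, and the test says only where it lay. A row was called when edgeR's quasi-likelihood test with Benjamini-Hochberg adjustment gave a false discovery rate (FDR) of at most 0.05 and the mean log2CPM of the compared groups was above 2. Of the 150 rows, 57 fell from 4 to 8 days, 3 rose, 74 did not pass and 16 were below the level of 2. Of all rows at that level, 15.8% were called lower and 18.1% higher, while of the 134 selected rows at that level these were 42.5% and 2.24%. In these bulk samples, a change in the number of cells of a kind and a change in RNA per cell cannot be told apart. The median log2 fold change was -0.31 over the 150 rows, with those below the level, and -0.01 over all rows at that level. When the fit held the 4-day and 8-day libraries alone, 96 rows were called lower and 8 higher, and over all rows the calls also went up, to 29.9% lower and 28.98% higher. Leaving out any 1 of these 6 libraries gave 40 to 49 lower and 2 to 3 higher calls. Here and below, no share over all rows is given for fits with a single library left out.

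Most of the falls after day 4 were in rows with an intermediate share left, which is the largest class. Of the 57 rows, 48 were among the 101 with 25% to 75% of the rise left at 4 days. Another 5 were among the 7 slow rows (R22, R119, R126, R132 and R143), and 4 among the 42 fast rows (R41, R52, R93 and R109). The classes were cut on the 4-day level from which the test starts. Few falls among the fast rows follow in part from that. The largest falls were those of R119, with a log2 fold change of -1.91 (SE 0.27, adjusted p = 3.5e-05), and of R20, with -1.25 (SE 0.25, adjusted p = 0.00096). R20 had 56.3, 56.7 and 57.5 CPM at 4 days and 25.1, 21.3 and 24.8 CPM at 8 days, with no overlap. Its 2-hour libraries were uneven, at 16.4, 52.5 and 17.7 CPM, with library B the high one.

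The 3 rows that rose were R19, R56 and R146, all of them fast rows at 4 days. R146 had 8.57, 9.12 and 7.19 CPM at 4 days and 14.6, 14.7 and 11.1 CPM at 8 days, a log2 fold change of 0.70 (SE 0.14, adjusted p = 0.0011), so that it went below its base at day 4 and returned. R19 had 89.5, 91.3 and 88.3 CPM at 4 days and 111, 109 and 119 CPM at 8 days, a log2 fold change of 0.34 (SE 0.08, adjusted p = 0.0041). Its 1-day libraries, at 318 to 346 CPM, stayed far above both. R56, whose log2 fold change was 0.25 (adjusted p = 0.047), was named after its values were seen.

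In sorted cells of the mouse groups, the median of L over the rows was 4.16 in chow-fed mice and 4.08 in vehicle-treated mice, against 4.51 at 2 hours and 6.07 at 1 day of culture. In the treated groups it was 4.28, 4.46 and 4.40 after 12, 16 and 24 weeks of WD and 4.23, 4.62 and 4.37 after 1, 4 and 8 weeks of CCl4. In 27 rows both control groups were at least 1 below the 2-hour level, and in 26 rows at least 1 of them was 1 or more above it. In 143 of the 150 rows L was higher at 1 day of culture than in both control groups. In 92 rows every mouse group was at least 1 below day 1, and in 18 rows at least 1 mouse group was above it. The rule chose the rows for a high level at 1 day. The counts against day 1 follow in part from that choice and are given as a description. These levels set tables side by side that share only the division by library totals, and differences between cultured and freshly sorted cells were not tested.

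**Figure D2:**
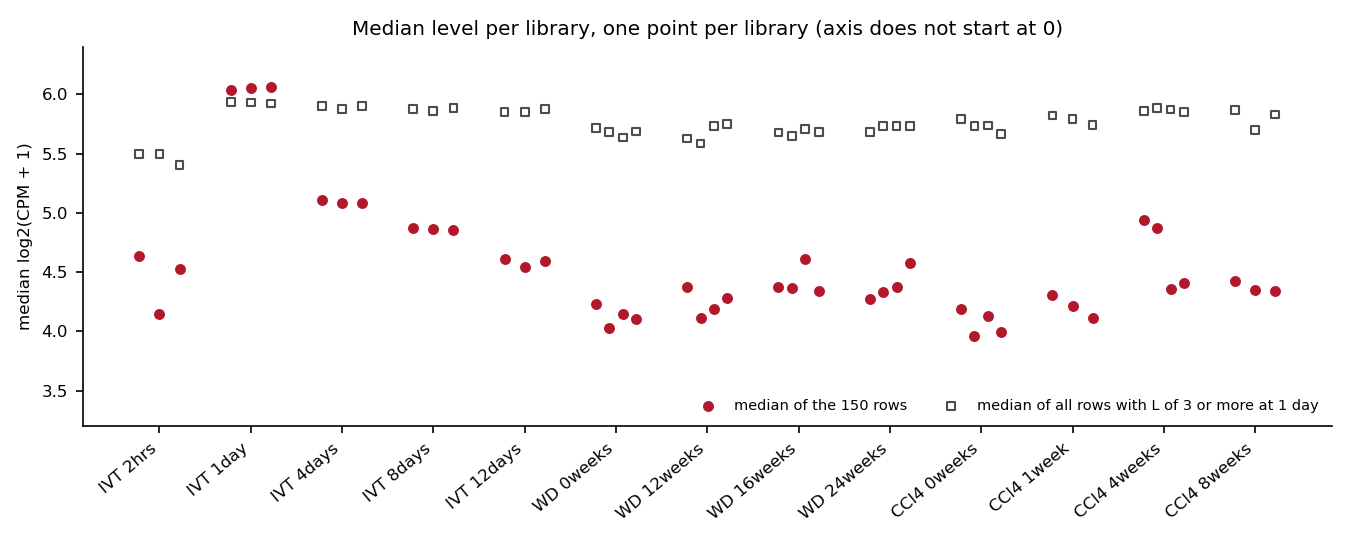
Median log2(CPM + 1) per library (y axis, not starting at 0) in the 13 groups (x axis), as filled points for the 150 rows and open squares for all rows with an L of at least 3 at 1 day. The filled points reach 6.03 to 6.06 at 1 day and stay at 4.94 or below in every mouse library, and 2-hour library B and CCl4 4-week libraries A and B stand apart from their groups.

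R1 and R4 had next to no reads in mice. R1 was at 0 in all chow and vehicle libraries and at most 0.451 CPM in any treated library. R4 had no read in the 16 diet libraries, and R4, R11 and R17 were at or under 3 counts in each of the 8 mouse groups. R7 was at 0 in the 4 chow libraries, but had 0.412 to 4.30 CPM in the 12 libraries of WD-fed mice and 1 read in the 14 libraries of the CCl4 model. Libraries A of 12 weeks and A of 16 weeks were the highest, at 4.30 CPM each. R7 did not pass the filter on low counts for the test in either model, so no fold is given.

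In the WD model, rows were called in both directions at every time. At 12 weeks 20 rows were higher and 11 lower than in chow, where 20.7% of all rows at the level were called higher and 7.36% lower. At 16 weeks 37 were higher and 22 lower, against 30.3% and 26.8% of all rows. At 24 weeks 27 were higher and 19 lower, against 26.4% and 18.3%. In percent of the 131, 128 and 131 rows that passed the filter and the level, these were 15.3%, 28.9% and 20.6% higher and 8.40%, 17.2% and 14.5% lower, so that neither direction was clearly more frequent than over all rows. The median log2 fold change was 0.03, 0.13 and 0.08 over the selected rows that passed the filter. Over all rows at the level it was -0.01, 0.02 and 0.03. The 3 comparisons share the chow libraries. Without WD 12-week library A the rows called higher at 12 weeks were 13, and without WD 12-week library C those called lower were 7. At 24 weeks the lower calls were 10 without chow library B and 11 without WD 24-week library D.

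The rows with the largest change in WD were among the highest of the selection. The paper speculates that mRNA of disrupted hepatocytes and fatty debris raised hepatocyte transcripts in libraries of WD-fed mice. For some transcripts of the mouse models it holds traces of macrophage mRNA to be the more likely source. Whether any row described here came from other cells was not tested, as the rows have no gene names. R8 had 21.3, 7.94, 11.8 and 17.9 CPM in chow libraries. It had 244, 232, 184 and 147 CPM after 12 weeks, 283, 231, 236 and 229 after 16 weeks and 231, 153, 224 and 249 after 24 weeks. No WD library came near the chow range, and all 12 were above the 14.6 to 17.5 CPM of the 1-day cultures. The log2 fold changes were 3.83 (SE 0.29, adjusted p = 7e-07), 4.05 (SE 0.30, adjusted p = 1.3e-07) and 3.85 (SE 0.29, adjusted p = 2e-07).

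R2 and R6 were close to silent in chow and clear in WD. R2 had 1.11, 0.324, 0.255 and 0.911 CPM in chow, then 53.9, 11.1, 24.3 and 12.8 at 12 weeks, 28.96, 19.6, 22.5 and 16.9 at 16 weeks and 16.5, 12.9, 13.1 and 26.6 at 24 weeks. R6 had 0.926, 0, 0 and 0.182 CPM in chow, then 42.5, 11.5, 6.11 and 7.83 at 12 weeks, 11.5, 9.54, 12.4 and 4.57 at 16 weeks and 9.28, 5.17, 2.32 and 16.1 at 24 weeks. Neither row had an overlap between chow and WD, and library A at 12 weeks was the highest of all for both. At 12 weeks the log2 fold change was 5.30 (SE 0.60, adjusted p = 6.6e-06) for R2 and 5.87 (SE 0.97, adjusted p = 0.00024) for R6. At 24 weeks it was 4.63 for R2 (SE 0.60, adjusted p = 1.9e-05) and 4.72 for R6 (SE 0.98, adjusted p = 0.0014). The chow values rest on 14 and 6 reads over 4 libraries, so the size of these folds depends on the small count that edgeR adds. Without WD 12-week library A the log2 fold change at 12 weeks was still at least 4.58 for R2 and 4.78 for R6, the lowest values when any library was left out.

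In all, 16 rows were higher than chow at all 3 diet times and 8 were lower at all 3. These are 12.6% and 6.30% of the 127 rows at the level at all 3 times, against 17.04% and 5.56% of all such rows. R92 was among the 8. It had 25.6, 21.6, 13.8 and 19.1 CPM in chow and 7.28 to 10.4 at 12 weeks, 3.97 to 9.50 at 16 weeks and 6.33 to 11.1 at 24 weeks, with no overlap. Its log2 fold change was -1.13 at 12 weeks (SE 0.28, adjusted p = 0.0062) and -1.30 at 24 weeks (SE 0.28, adjusted p = 0.0017). R93 had a log2 fold change of -1.04 at 12 weeks (SE 0.34, adjusted p = 0.03), from 5.51 to 13.3 CPM in chow to 3.14 to 4.95 CPM. R147 had -1.13 at 24 weeks (SE 0.42, adjusted p = 0.04), from 4.37 to 8.43 CPM in chow to 1.90 to 3.66 CPM. The diet groups of both rows lay wholly below chow at these times.

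Between 12 and 24 weeks of WD, 4 rows rose and none fell, against 5.79% and 0.403% of all rows. With no level or adjustment, 21 of the 142 rows that passed the filter had an unadjusted p under 0.05. Of all 12416 rows at the level, 2403 had such a p. DESeq2's Wald test called 5 rows higher and 0 lower, against 8.16% and 1.45% of all rows. The 4 rows were R22, R44, R72 and R140, of which R44 and R140 were named after their values were seen. R72 had 5.46, 9.07, 5.601 and 8.66 CPM at 12 weeks and 16.7, 17.4, 50.02 and 60.6 at 24 weeks, a log2 fold change of 2.28 (SE 0.50, adjusted p = 0.012). R22 had 14.4, 14.02, 11.9 and 16.2 CPM at 12 weeks and 28.1, 35.5, 73.9 and 79.3 at 24 weeks, a log2 fold change of 1.87 (SE 0.42, adjusted p = 0.013). In both rows the groups were apart, and libraries C and D were far above A and B at 24 weeks and again at 16 weeks. One row of the 4 was called without WD 12-week library C and 2 without WD 24-week library C.

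The CCl4 model had fewer calls at 1 week and most at 4 weeks. At 1 week 11 rows were higher and 14 lower than with vehicle, against 15.6% and 11.1% of all rows. At 4 weeks 43 were higher and 20 lower, against 25.6% and 25.9%. At 8 weeks 25 were higher and 25 lower, against 23.9% and 26.3%. Of the 132, 134 and 133 rows at the level, 8.33%, 32.1% and 18.8% were called higher, and 10.6%, 14.9% and 18.8% lower. The share of higher calls at 4 weeks was above that over all rows, and the others were near or below it. The median log2 fold change over the selected rows that passed the filter was 0.02, 0.23 and -0.09. Over all rows at the level it was -0.01, -0.02 and -0.04. The 3 comparisons share the vehicle libraries. With library totals in place of TMM the calls were 55 higher and 8 lower at 4 weeks and 30 higher and 17 lower at 8 weeks. All rows shifted the same way with library totals, to 32.7% higher and 19.1% lower at 4 weeks and 29.3% and 19.8% at 8 weeks, and the median log2 fold change over all rows at 4 weeks went to 0.14. At 1 week the higher calls were 7 without vehicle library A, 6 without CCl4 1-week library A and 5 without library B. The lower calls there were 9 without vehicle library D and 8 without either of the 1-week libraries A and B.

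**Figure D3:**
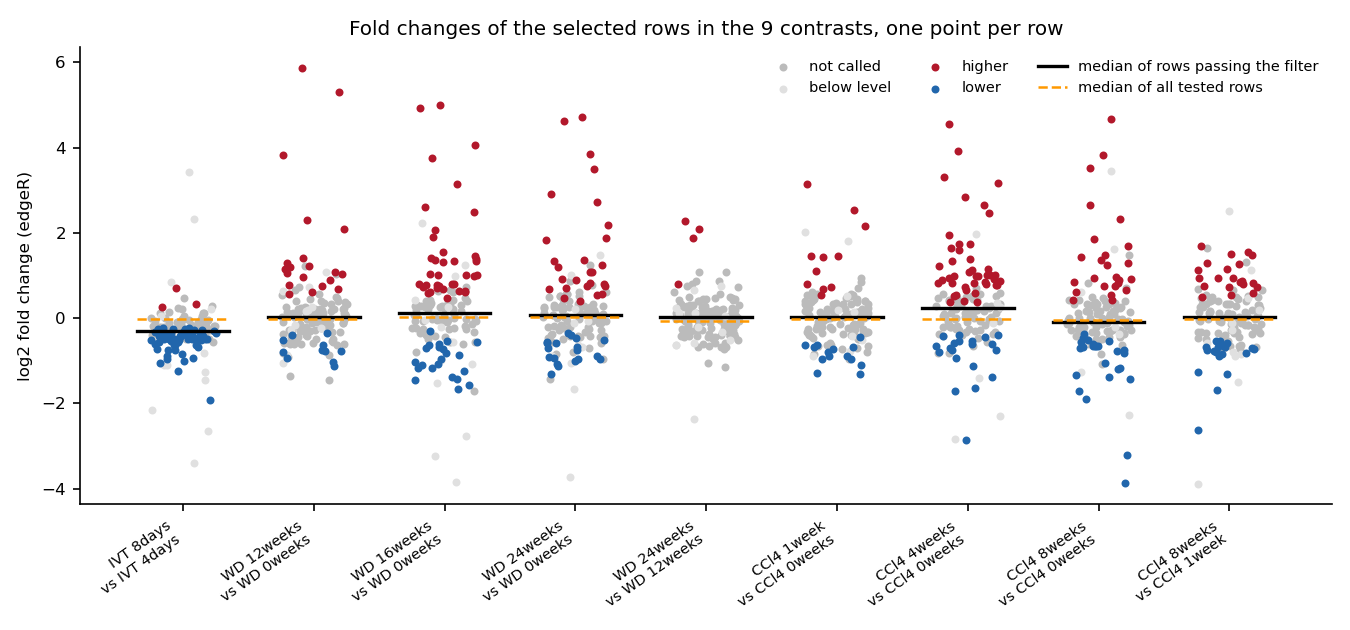
Log2 fold changes of the rows (y axis) in 9 contrasts (x axis), a point per row. Higher calls are red, lower calls blue, and rows not called or below the level grey. The black bar is the median of the selected rows that passed the filter, and the dashed orange bar that of all rows at the level. The black bar is at -0.31 for 8 against 4 days of culture and 0.23 for 4 weeks of CCl4, and within 0.13 of 0 elsewhere.

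The higher calls at 4 weeks of CCl4 leaned on 2 of the 4 libraries. The medians over the 150 rows were 4.94 in library A and 4.88 in B, but 4.35 in C and 4.41 in D, while the medians of all rows with an L of at least 3 at 1 day were 5.86, 5.88, 5.87 and 5.85. In 85 rows (56.7%) both A and B were above both C and D, against 27.3% of the rows with an L of at least 3 at 1 day. The 4-week group was the highest of the 4 CCl4 groups in 78 rows (52.0%, against 28.5%). Without A and B it was the highest in 39 rows (26.0%, against 22.1%), and 23 rows were called higher and 18 lower, where 19.3% of all rows were called higher and 19.5% lower in that fit. That pair of libraries was chosen after their values were seen, and what sets them apart was not tested.

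The rows that rose most with CCl4 rose at every time. R72 had 3.27, 1.67, 2.32 and 3.47 CPM with vehicle, 26.7, 22.6 and 22.03 after 1 week, 65.6, 94.5, 54.7 and 61.5 after 4 weeks and 102, 60.8 and 61.0 after 8 weeks. None of the treated libraries overlapped the vehicle libraries, and the log2 fold change was 3.14 at 1 week (SE 0.29, adjusted p = 8.4e-07), 4.55 at 4 weeks (SE 0.27, adjusted p = 3.3e-09) and 4.68 at 8 weeks (SE 0.28, adjusted p = 2.5e-09). R22 had 3.71, 5.49, 1.90 and 2.08 CPM with vehicle, 27.3, 16.1 and 15.8 after 1 week, 63.1, 31.9, 25.1 and 30.2 after 4 weeks and 76.2, 24.6 and 54.0 after 8 weeks. Its log2 fold change was 2.54 at 1 week (SE 0.44, adjusted p = 0.0005) and 3.82 at 8 weeks (SE 0.44, adjusted p = 2.9e-06), again with no overlap. In culture R72 had 178 to 204 CPM at 1 day and 64.9 to 70.3 CPM at 12 days.

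R44 and R140 also rose with CCl4. R44 had 0.654, 1.67, 0.844 and 0.694 CPM with vehicle and 14.8, 7.76 and 14.6 after 8 weeks, a log2 fold change of 3.51 (SE 0.43, adjusted p = 5.9e-06). R140 had 12.2, 11.2, 6.12 and 14.2 CPM with vehicle and 46.5, 38.8 and 43.2 after 8 weeks, a log2 fold change of 1.85 (SE 0.26, adjusted p = 2.1e-05). R3, the row with the third highest score, was called with CCl4 at 4 weeks. It had 0, 0.239, 1.69 and 0 CPM with vehicle and 4.96, 8.79, 11.8 and 11.9 after 4 weeks, a log2 fold change of 3.92 (SE 0.78, adjusted p = 0.0006). The vehicle values rest on 9 reads, 8 of them in library C, and the log2 fold change was 3.47 to 6.27 when single libraries were left out, with the 6.27 without vehicle library C. The libraries of 8 weeks were at 10.5, 0.863 and 7.79 CPM, with library B near vehicle. The log2 fold change there was 3.44 (SE 0.83, adjusted p = 0.0026), but the mean level of the groups was under the limit for a call.

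**Figure D4:**
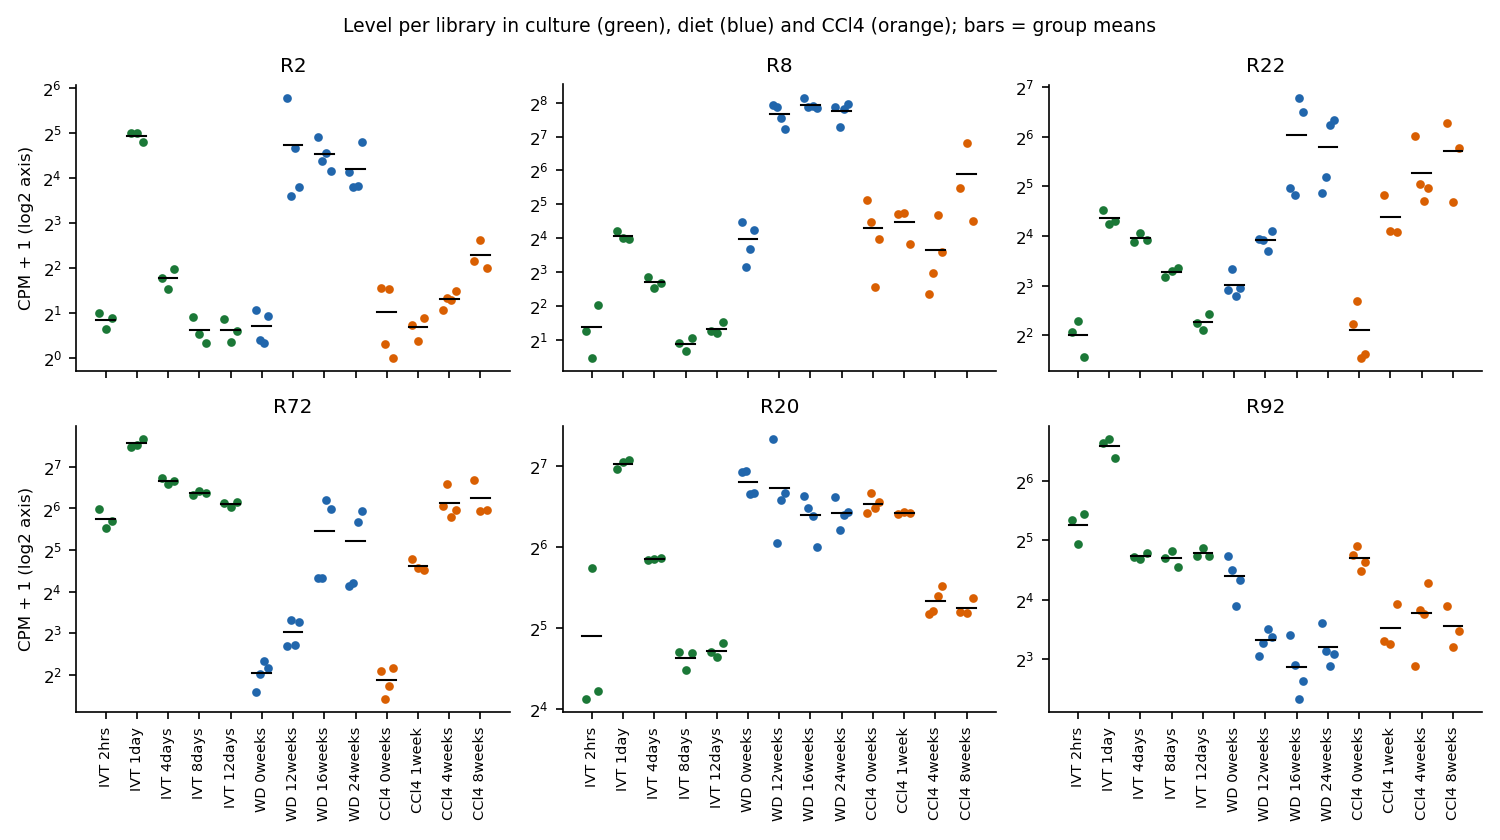
CPM plus 1 on a log2 axis (y axis) in the 13 groups (x axis) for 6 rows, a point per library and a bar at the group mean, with culture in green, diet in blue and CCl4 in orange. R2 and R8 are high in WD, R22 and R72 in WD of 16 and 24 weeks and in CCl4, R20 is low after 4 and 8 weeks of CCl4, and R92 is below its own control in all treated groups.

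Among the rows that fell with CCl4, R18 had 7.20, 7.16, 5.28 and 2.78 CPM with vehicle and 0.515, 0 and 0.502 after 8 weeks, a log2 fold change of -3.87 (SE 0.56, adjusted p = 3.4e-05). R91, the plateau row of the culture, had 6.32, 5.01, 15.2 and 9.37 CPM with vehicle and 0.858, 0 and 2.01 after 8 weeks, a log2 fold change of -3.21 (SE 0.68, adjusted p = 0.001). The 8-week groups of both rows were below every vehicle library and close to the counting floor. R20 had 84.8, 101, 88.6 and 93.0 CPM with vehicle, 84.2, 85.8 and 84.7 after 1 week, 35.3, 36.0, 41.2 and 44.8 after 4 weeks and 35.9, 35.4 and 40.4 after 8 weeks. Its lower level was in place at 4 weeks, with a log2 fold change of -1.38 (SE 0.12, adjusted p = 2.3e-07), and was -1.44 at 8 weeks (SE 0.14, adjusted p = 4.3e-07). R92 and R34 were lower at all 3 times, with log2 fold changes of -1.28 (SE 0.30, adjusted p = 0.0056) and -1.32 (SE 0.39, adjusted p = 0.021) at 1 week.

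The nearest pattern that could be looked for in mice was a higher level at 1 week of CCl4 that was gone at 8 weeks. No CCl4 group was sampled before 1 week, so a rise that came and faded earlier could not be seen. The 1-week group was the highest of the 4 CCl4 groups in 19 rows (12.7%, against 23.9% of the rows with an L of at least 3 at 1 day of culture). In 8 rows (5.33%, against 4.79%) L was at least 1 higher at 1 week than with vehicle, and in 0 of these (against 0.395%) was it also at least 1 higher than at 8 weeks. R126, named after its values were seen, was the one row called higher at 1 week and lower at 8 weeks against 1 week, which is 0.794% of the 126 rows at the level in both, against 3.91% of all such rows. Between 1 and 8 weeks 21 rows rose and 19 fell, against 22.8% and 23.9% of all rows, and with library totals the numbers were 25 and 14, against 28.5% and 18.7%. Without CCl4 1-week library A or B 13 rows rose, and without B 12 fell. R5 was among those that fell, from 11.8, 12.2 and 11.8 CPM at 1 week to 4.12, 3.45 and 4.27 CPM at 8 weeks, with a log2 fold change of -1.69 (SE 0.36, adjusted p = 0.0016). Its vehicle libraries, at 5.23 to 9.29 CPM, were between the 2 groups.

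The WD and CCl4 models have separate controls, and the rows called in each were compared with one another. Of the 27 rows higher after 24 weeks of WD, 18 (66.7%) were among the 25 higher after 8 weeks of CCl4 (72%). Of the 19 lower after WD, 12 (63.2%) were among the 25 lower after CCl4 (48.0%). Over all rows these shares were 56.6% and 62.2% for the higher calls and 72.5% and 50.03% for the lower calls, so most calls were shared over all rows as well. No row was higher in WD and lower in CCl4, against 1.55% and 1.54% over all rows. R54 was lower in WD and higher in CCl4 (5.26% and 4.0%, against 1.70% and 1.29%). For 16 weeks of WD and 4 weeks of CCl4, 23 rows were higher in both (62.2% and 53.5%, against 48.1% and 57.05% over all rows). Lower in both were 8 rows, out of 22 lower in WD (36.4%, against 59.85%) and 20 lower in CCl4 (against 62.2%). The lower calls of this pair were thus shared less often than over all rows. Another 2 rows were higher in WD and lower in CCl4 (5.4% and 10.0%, against 4.69% and 5.5%). A further 3 were lower in WD and higher in CCl4 (13.6% and 6.98%, against 4.88% and 5.12%). For the first times, 3 of 20 rows higher after 12 weeks of WD were among the 11 higher after 1 week of CCl4 (15% and 27.3%, against 22.4% and 30.2% over all rows). Of 11 lower rows, 2 were among 14 (18.2% and 14.3%, against 14.45% and 9.71%). In that pair 2 rows were higher in WD and lower in CCl4 (10.0% and 14.3%, against 5.90% and 11.1%). The reverse held for 2 rows (18.2% and 18.2%, against 5.4% and 2.6%). R55 and R140 were higher and R92 was lower at all 3 times of both models. These are 1.61% and 0.807% of the 124 rows at the level throughout, against 4.07% and 0.813% of all such rows. R55 was named after its values were seen. In all, 102 rows were called in at least 1 comparison with chow or vehicle and 48 in none. The 102 are 73.4% of the 139 rows at the level in any of these comparisons, against 80.6% of all such rows.

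**Figure D5:**
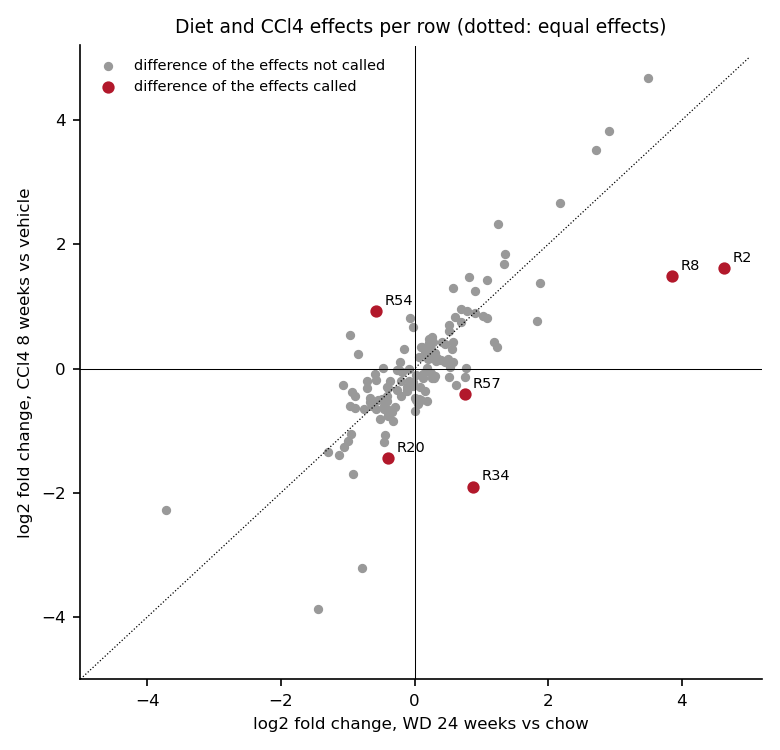
Log2 fold change after 24 weeks of WD against chow (x axis) and after 8 weeks of CCl4 against vehicle (y axis) for the 139 rows tested in both, a point per row, with the dotted line at equal effects. Red points are the 6 rows whose effects differed between the models, R2, R8, R20, R34 and R57 to the right of the line and R54 to the left.

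The difference between the 2 effects was tested in 1 fit of all 30 mouse libraries. The WD effect was higher than the CCl4 effect in 5 rows and lower in 1, against 6.49% and 3.75% of all rows. The 6 rows R2, R8, R20, R34, R54 and R57 were named after their values were seen. R8, with the strong increase in WD given above, had 34.2, 21.5, 4.85 and 14.6 CPM with vehicle and 43.3, 110 and 21.6 after 8 weeks of CCl4, where the ranges overlapped, and the difference of the effects was 2.31 on the log2 scale (SE 0.71, adjusted p = 0.035). R2 had 3.43, 5.18 and 3.01 CPM after 8 weeks of CCl4 and at most 1.96 CPM with vehicle, and its effects differed by 3.00 (SE 0.90, adjusted p = 0.031). The fitted log2 fold change with CCl4 was 1.49 for R8 (SE 0.60, adjusted p = 0.051) and 1.61 for R2 (SE 0.61, adjusted p = 0.039, below the level for a call).

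R34 had 7.78, 2.92, 4.85 and 14.03 CPM in chow and 14.9, 7.11, 15.8 and 17.6 after 24 weeks of WD, with overlap. With vehicle it had 7.20, 6.20, 6.54 and 9.72 CPM, and 1.03, 3.45 and 2.51 after 8 weeks of CCl4, with none. The difference of its effects was 2.76 (SE 0.62, adjusted p = 0.0038). R54 had 14.3, 15.6, 12.3 and 10.4 CPM in chow and 8.82, 6.89, 10.8 and 8.90 after 24 weeks of WD, but 9.81, 11.7, 11.6 and 7.64 with vehicle and 30.04, 13.4 and 19.8 after 8 weeks of CCl4, and the difference was -1.53 (SE 0.35, adjusted p = 0.0046). R54 moved in opposite directions in the models by the calls in each. For R20 and R57 the differences were 1.01 (SE 0.27, adjusted p = 0.014) and 1.12 (SE 0.30, adjusted p = 0.016).

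The count of such rows varied with the libraries in the fit. With 1 library left out the count was 1 to 5 higher and 1 to 4 lower. No share over all rows is given for these fits, so the changes are not read as a trait of the selected rows. It was 1 higher without CCl4 8-week library A or C, 2 without chow library C, and 3 without chow library B or D, WD 24-week library D or vehicle library A or D. The lower calls were 4 without WD 24-week library B, 3 without CCl4 8-week library A, and 2 without chow library A, vehicle library D or CCl4 8-week library C. With DESeq2 size factors or library totals 5 rows were higher and 3 lower. Over all rows the shares were 5.48% and 4.41% with size factors and 5.73% and 4.44% with library totals.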

How the data were processed

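The 3 deposited tables of 23999 lines hold raw counts, not normalized by the authors. Reads had been aligned to mm10 with STAR and counted over exons by HOMER without regard to strand. No more than 3 reads were kept at a position, which compresses high counts. The row identifiers did not follow the counts (23659 matched RefSeq names), so rows were left unnamed. The members, the lists and the tests were chosen with earlier results of these data known. Columns were assigned by title, each matching a sample label, although the command in the header of each table names one and the same set of source libraries. No library pair agreed within sampling noise (the lowest chi-square per degree of freedom was 1.075), so none was merged. Mouse libraries were taken as different mice.

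CPM, L and the selection were computed in Python 3.11.15. Differences were tested with edgeR 4.0.16 in R 4.3.3 (TMM, filterByExpr, quasi-likelihood test, Benjamini-Hochberg adjustment over all rows), in a single fit for each experiment. Calls were made at an FDR up to 0.05 where log2CPM, averaged over the compared groups, exceeded 2. SEs were derived from the fold change and its F statistic. The fits were tested on simulated data. DESeq2 1.42.0, other scalings, filters, the replicate letter as a block and leaving out libraries were tried as alternatives. The 3 pairs of equal letters deviated together only for CCl4 1 week against vehicle (correlations of 0.139 to 0.238). The replicate block there gave 9 higher and 10 lower calls in place of 11 and 14, against 13.3% and 7.72% of all rows.

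Rows named individually were ranks 1 to 10, the last 3 taken and the next 3, and the 2 called rows with the largest increase and decrease in 5 comparisons. Others were added after their values were seen. Sequences were not printed, since no row could be tied to a gene.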

Additional observations from a re-analysis of the deposited data

Results flagged for a closer look

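The median log2(CPM + 1) over the 150 rows was 4.61 in WD 16-week library C, far above the other 3 libraries of its group: the gap to the nearest of them was 0.89 of the range of the group, over the limit of Dixon's test at 95% for 4 libraries. Chance marks about 1 in 20 such groups, and 25 sets of 4 libraries were examined. In 6 rows the effect of 24 weeks of WD differed from that of 8 weeks of CCl4 by the test of the difference itself. The differences on the log2 scale, WD minus CCl4, were 2.76 for R34, 2.31 for R8, 3.00 for R2, 1.01 for R20, 1.12 for R57 and -1.53 for R54. No explanation for these values was tested.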

How the results depend on the processing

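Of 1581 alternative log2 fold changes of the named rows, 1378 kept their direction and their call, 203 kept the direction without the call and 0 changed sign. With only the compared groups in the fit, the counts were 8 higher and 96 lower for culture day 8 against 4, and 21 higher and 22 lower for 1 week of CCl4, where the calls over all rows also went up, to 28.98% and 29.9% and to 21.6% and 19.7%. DESeq2's Wald test called 17 rows lower at 12 weeks of WD, where 11.9% of all rows were called lower. Library totals gave 8 lower calls at 4 weeks of CCl4, and leaving out its libraries A and B together, an alternative added after seeing the data, gave 23 higher. The rows with a lower WD than CCl4 effect were 3 with DESeq2 size factors, 3 with library totals and 3 with the Wald test. Over all rows the shares were 4.41%, 4.44% and 5.48%.

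With 1 library left out, the higher and lower counts ranged from 13 to 21 and from 7 to 13 at 12 weeks of WD. Shares over all rows are not given for the fits of this paragraph. The lower count at 24 weeks ranged from 10 to 23. For 24 against 12 weeks the counts were 1 to 5 and 0 to 1, where leaving out library B of either group gave the 1. At 1 week of CCl4 they were 5 to 10 and 8 to 13, and at 4 weeks 32 to 53 and 15 to 19. For 8 against 1 week they were 13 to 22 and 12 to 24, and for the difference of the models 1 to 5 and 1 to 4. For culture day 8 against 4 they were 2 to 3 and 40 to 49.

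The replicate block made 1 row lower at 24 against 12 weeks of WD in place of 0, and moved no other count by over 1.5 times. The selection kept 96 of the 150 rows with TMM-scaled CPM, 96 with a limit of 0.25 between 12 days and 2 hours and 97 with a limit of 1. The median shares of the rise left were 29.93% and 10.48% with TMM-scaled CPM. Depth limits rows near 3 counts in a library.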
